A study of Mus musculus with 18 samples.

Results

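Tnf and Il6, the genes of the cytokines tumour necrosis factor (TNF) and interleukin 6 (IL-6), were followed on 18 Illumina mouse bead arrays of bone marrow-derived mast cells. They were chosen by name: every probe annotated to either gene was taken, which gave 3 probes of the 45281 on the array and 2 genes of the 19057 with a named probe. Tnf had 2 probes (ILMN_2899863 and ILMN_2467245) and Il6 had 1 (ILMN_1243601). The mice were of the strain C57BL/6J, 4-6 weeks old, and either wild type (WT) or ST2KO, which lack ST2, the chain of the IL-33 receptor that binds the cytokine IL-33. The 6 groups of 3 arrays were WT unstimulated, WT IgE for 4 h, WT IL-33 for 4 h, ST2KO unstimulated, ST2KO IgE for 4 h and ST2KO IL-33 for 4 h. The labels give neither the dose nor the antigen used with IgE, nor whether the 3 arrays of a group came from separate mice or cultures. The p-values here thus reflect how far the arrays of a group spread, which may be technical. Those with the array number as a block reflect the spread left after the number is taken out, which may be technical as well. Fewer responding cells and less RNA per cell cannot be told apart in these bulk samples.

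TNF is made as a membrane protein that a surface protease releases, and it acts through a pair of TNF receptors that signal to NF-kB, to kinases and to cell death. IL-6 acts through its receptor and the shared chain gp130, which pass the signal to JAK kinases and the transcription factor STAT3. Mast cells make both cytokines after their IgE receptors are crosslinked and after IL-33 binds ST2, and the transcription of both genes is known to depend on NF-kB, with NFAT, AP-1, EGR and C/EBP factors as further regulators. Their mRNAs carry AU-rich elements and are short-lived, which proteins that bind such mRNA control.

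The promoter windows of both genes are shown because the list of regulators described further on was chosen for factors known at them. They run from 250 bases before to 50 bases after the transcript start and come from RefSeq on GRCm38.p6, where Tnf lies at chr17:35201958-35202257 on the minus strand and Il6 at chr5:30012864-30013163 on the plus strand. Capitals mark every match, on either strand, to the kappaB motif (GGG and CC with any 5 bases between them), the AP-1 motif TGANTCA or the cyclic AMP response motif TGACGT.
Tnf: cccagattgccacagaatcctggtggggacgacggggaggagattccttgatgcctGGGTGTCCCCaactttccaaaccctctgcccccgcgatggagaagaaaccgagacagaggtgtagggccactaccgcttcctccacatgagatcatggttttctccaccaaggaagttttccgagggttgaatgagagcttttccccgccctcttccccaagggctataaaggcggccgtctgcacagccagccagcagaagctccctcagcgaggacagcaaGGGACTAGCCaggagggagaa
Il6: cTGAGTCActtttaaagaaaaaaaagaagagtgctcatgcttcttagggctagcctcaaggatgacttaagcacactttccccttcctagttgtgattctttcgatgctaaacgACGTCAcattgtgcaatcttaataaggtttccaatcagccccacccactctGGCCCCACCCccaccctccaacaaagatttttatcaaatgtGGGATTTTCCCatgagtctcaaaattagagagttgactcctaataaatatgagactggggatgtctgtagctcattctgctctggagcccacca
The Tnf window held 2 matches to the kappaB motif, at -194 to -185 and 30 to 39 from the transcript start, and 0 to the AP-1 and cyclic AMP response motifs. The Il6 window held 3 kappaB matches, a pair of which overlap and begin at -44 and -43, 1 AP-1 match at -249 to -243 and 1 cyclic AMP response match at -136 to -131. Of 32851 promoter windows of this length, 50.8% held a kappaB match, 7.81% an AP-1 match and 7.51% a cyclic AMP response match, so the kappaB letters are common in such windows. The NFAT core GGAAA was found 3 times in each window (61.3% of all windows hold it), and the third of these in Il6 overlaps the kappaB matches. The C/EBP motif TTNNGNAA was found 2 times in Tnf and 1 time in Il6 (40.7%), and 1 of the Tnf matches overlaps an NFAT match. The EGR motif GNGNGGGNG was found 0 times in Tnf and 3 times in Il6 (39.6%), with overlaps among these and with the kappaB match at -85 to -76. These matches describe letters and not sites in use.

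The files gave an intensity and a detection p-value for each probe, and levels are log2 intensities after background correction and quantile normalization. A probe was taken as detected at a detection p under 0.05, and 35.1% to 38.6% of the probes were detected on the 17 complete arrays, whose median intensity was 86.4 to 97.9. Of the genes, 10529 had a probe that passed the filter on detection, Tnf and Il6 among them with all 3 probes. With 3 arrays a group, the half-width of the 95% interval of a log2 difference between groups had a median of 0.46 over genes. The array of ST2KO IgE replicate 3 held an intensity for 10012 probes, without the Tnf and Il6 probes, and its 3 values were placed by their rank in the authors' log2 table. Arrays numbered 1 and 2 of a group correlated at 0.992 to 0.994 over genes, and those numbered 3 with either of them at 0.935 to 0.968. All 9 mast cell markers, among them Kit, Fcer1a and Cpa3, were detected on each of the 17 complete arrays. The gene of ST2, Il1rl1, had no named probe, so the knockout was not checked on the targeted gene.

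Unstimulated mast cells gave next to no Tnf signal and a clear Il6 signal. On the main Tnf probe, ILMN_2899863, which had the higher mean level and is used for all Tnf values unless the other is named, the WT unstimulated arrays 1, 2 and 3 stood at log2 levels of 4.30, 4.40 and 5.03. The ST2KO unstimulated arrays stood at 4.47, 4.37 and 5.07. Array 3 was the highest in both genotypes and the only one on which Tnf was detected. The deposited intensities of this probe were 90.5, 91.5 and 98.9 in WT cells, close to the median intensity of all probes. For Il6, the WT unstimulated arrays gave levels of 7.70, 7.51 and 7.09, with deposited intensities of 319, 287 and 195.4. The ST2KO unstimulated arrays gave Il6 levels of 8.16, 8.12 and 7.19. Il6 was detected on all of these 6 arrays, and here array 3 was the lowest of each genotype.

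**Figure D1:**
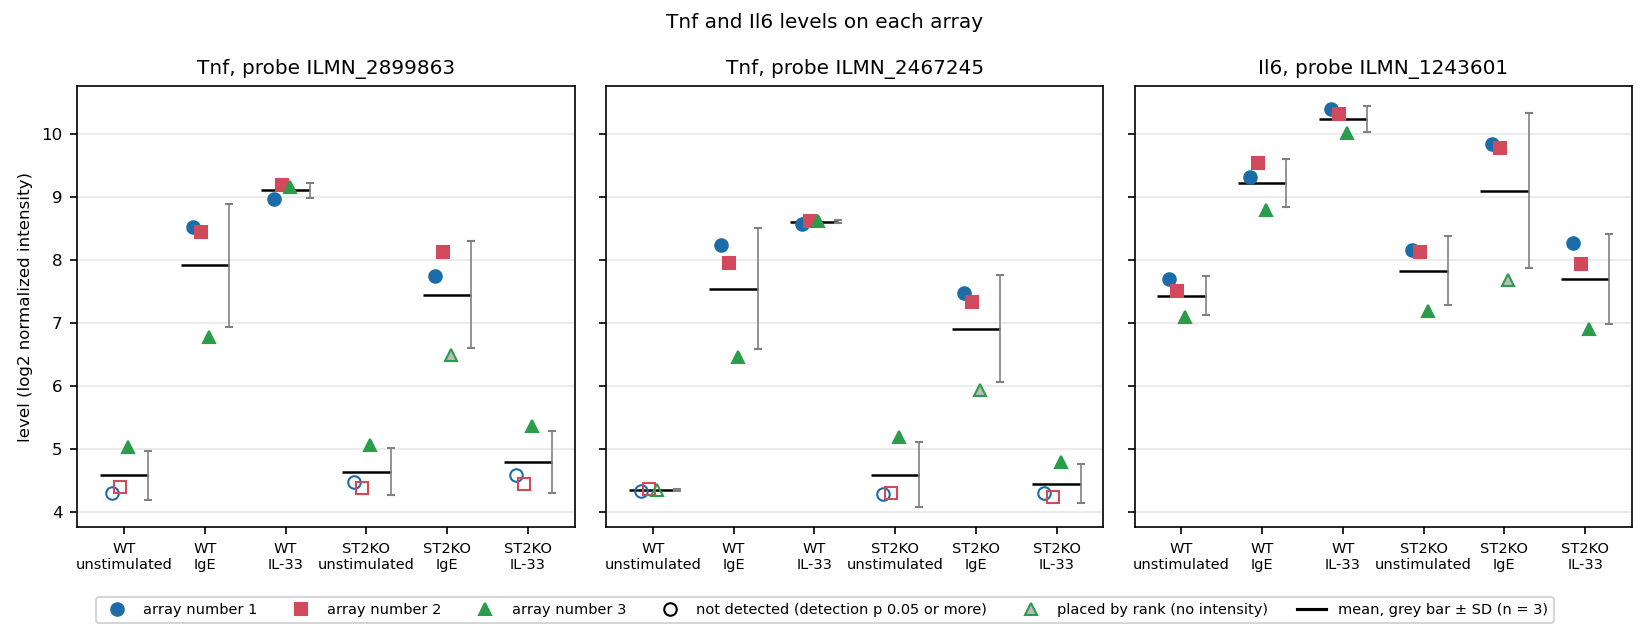
Log2 normalized intensity (vertical axis) of the 3 probes on each of the 18 arrays, by group (horizontal axis); symbols give the array number, open symbols arrays on which the probe was not detected, the grey symbol the value placed by rank, and lines the mean with the SD (n = 3). Both Tnf probes lie low in the unstimulated groups and in ST2KO IL-33 and high in the 3 other groups, while the Il6 probe has a higher floor.

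In WT mast cells, IgE raised both genes. The WT IgE arrays 1, 2 and 3 gave Tnf levels of 8.52, 8.44 and 6.78, all above the 3 unstimulated arrays, with array 3 well below the other two. The mean level was 7.91 ± 0.98 (SD, n = 3) against 4.58 ± 0.39 (SD, n = 3) unstimulated, a log2 difference of 3.33 (SE 0.46, limma adjusted p = 0.000387). Il6 levels on the same arrays were 9.32, 9.54 and 8.79, again with no overlap with the unstimulated arrays. The Il6 mean was 9.22 ± 0.38 (SD, n = 3) against 7.43 ± 0.31 (SD, n = 3), a log2 difference of 1.79 (SE 0.49, 3.45-fold, limma adjusted p = 0.0273). Both of the 2 genes were thus called higher, where 5.33% of the genes tested were called higher and 6.53% lower, and both sets of 3 arrays lay apart from the unstimulated ones, as they did upward for 16% of the genes. The size of the Tnf difference rests on a level near background, since the probe was detected on 1 of the 3 unstimulated arrays: without background correction its log2 difference was 1.75, against 1.44 for Il6. The Il6 call was lost with median scaling (adjusted p = 0.0662) and in 5 of the 18 fits that left out 1 array, namely without any 1 of the WT unstimulated arrays or without WT IgE replicate 1 or 2 (adjusted p up to 0.112); the Tnf call was kept in each.

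With IL-33, Tnf and Il6 reached the highest levels of any group. The WT IL-33 arrays gave Tnf levels of 8.96, 9.19 and 9.16, a narrow range that lay above every other array of the study. The mean of 9.10 ± 0.12 (SD, n = 3) was 4.53 log2 units over the unstimulated mean (SE 0.46, limma adjusted p = 5e-05). Il6 levels were 10.39, 10.32 and 10.01 with IL-33, likewise above all other arrays. The mean of 10.24 ± 0.20 (SD, n = 3) was 2.81 log2 units over the unstimulated mean (SE 0.49, 7.0-fold, limma adjusted p = 0.0017). Both genes were called higher, against 5.09% of all genes called higher and 6.74% lower, and both had groups that did not overlap, against 13.5% of all genes upward. The calls held in all 18 fits that left out 1 array, and without background correction the differences were 2.70 for Tnf, whose size rests on the same unstimulated level near background, and 2.37 for Il6. The IgE and IL-33 differences share the 3 WT unstimulated arrays.

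The second Tnf probe, ILMN_2467245, gave the same order of groups in WT cells. Its levels were 4.33, 4.36 and 4.34 unstimulated, where it was not detected on any array, then 8.23, 7.95 and 6.45 with IgE and 8.57, 8.63 and 8.62 with IL-33. Array 3 with IgE was again the low one. A floor was set by the lowest level among detected probes of each unstimulated array. Against it the group mean of this probe was 7.47-fold higher with IgE and 15.6-fold higher with IL-33, as lower bounds that were not tested. Without the floor the log2 differences were 3.20 with IgE (limma adjusted p = 0.00031 over all probes) and 4.265 with IL-33 (adjusted p = 3.82e-05).

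IL-33 was then set directly against IgE in WT cells. Every IL-33 array lay above every IgE array for both genes, as was the case for 10.5% of the genes tested. The log2 difference was 1.19 for Tnf (95% interval 0.21 to 2.18, limma adjusted p = 0.207) and 1.02 for Il6 (95% interval -0.02 to 2.06, limma adjusted p = 0.346), so neither gene was among the 4.43% of genes called in either direction. Within array numbers, IL-33 exceeded IgE by 0.44, 0.75 and 2.38 for Tnf and by 1.07, 0.79 and 1.21 for Il6 on arrays 1, 2 and 3. The Il6 difference was even over the numbers, while that of Tnf was largest by far on array 3. With the array number as a block the Il6 difference passed (adjusted p = 0.00117) and that of Tnf did not (adjusted p = 0.0832). Without the 6 arrays numbered 3, an alternative chosen after seeing the data, both passed, at 0.60 for Tnf (adjusted p = 0.0324) and 0.93 for Il6 (adjusted p = 1.51e-05).

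Cells that lack ST2 kept a Tnf response to IgE. The ST2KO IgE arrays 1, 2 and 3 gave Tnf levels of 7.74, 8.12 and 6.49, the last of these placed by rank. All lay above the ST2KO unstimulated arrays, and array 3 was again the lowest. The mean was 7.45 ± 0.85 (SD, n = 3) against 4.64 ± 0.38 (SD, n = 3), a log2 difference of 2.81 (SE 0.46, limma adjusted p = 0.00127). Il6 levels on these arrays were 9.84, 9.78 and 7.69. Arrays 1 and 2 lay well above the unstimulated ones, and array 3 lay within their range. The Il6 mean of 9.10 ± 1.22 (SD, n = 3) exceeded the unstimulated 7.83 ± 0.55 (SD, n = 3) by 1.28 log2 units (95% interval 0.24 to 2.32), which did not pass (limma adjusted p = 0.102). So 1 of the 2 genes was called higher, against 5.48% of all genes called higher and 7.11% lower. The Il6 difference passed with the array number as a block (adjusted p = 8.95e-05) and without ST2KO IgE replicate 3, the array with missing intensities, where it was 1.98 (adjusted p = 0.00313). Without background correction the Tnf difference was 1.38.

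In ST2KO cells neither gene passed the test with IL-33. The ST2KO IL-33 arrays gave Tnf levels of 4.58, 4.44 and 5.36 and Il6 levels of 8.27, 7.94 and 6.89. These ranges overlapped those of the ST2KO unstimulated arrays for both genes. The log2 difference was 0.16 for Tnf (95% interval -0.83 to 1.14) and -0.13 for Il6 (95% interval -1.17 to 0.91), each with a limma adjusted p of 1. The second Tnf probe gave -0.14. Of all genes tested, 0% were called in this comparison by limma, with 155 genes at an unadjusted p under 0.05 and 0 called with the array number as a block. The intervals leave room for a change of about 1 log2 unit in either direction, far short of the WT responses. On array numbers 1, 2 and 3 the difference was 0.11, 0.07 and 0.29 for Tnf and 0.10, -0.18 and -0.30 for Il6.

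**Figure D2:**
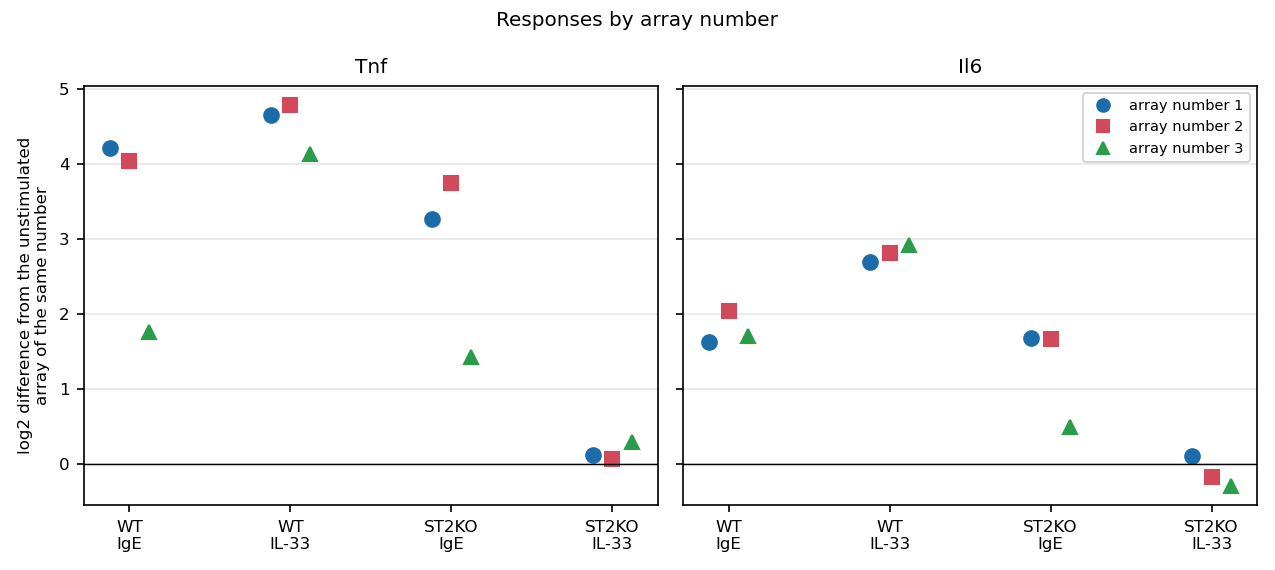
Log2 difference of each stimulated array from the unstimulated array of the same number and genotype (vertical axis), for Tnf and Il6, with 1 symbol per array number. The Tnf response to IgE was 1.75 on WT array 3 and 1.42 on ST2KO array 3 against 3.26 to 4.21 on the arrays numbered 1 and 2, and the response to IL-33 in ST2KO cells lay near 0 on every number.

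The genotypes were compared within each state. Unstimulated cells differed by 0.06 log2 units for Tnf (ST2KO minus WT, 95% interval -0.93 to 1.04) and 0.39 for Il6 (-0.65 to 1.43), with a limma adjusted p of 1 for each, and 0.0095% of all genes, which is 1 gene, were called. Without the arrays numbered 3 the Il6 difference was 0.54 and passed (adjusted p = 0.0221). With IgE, the ST2KO cells stood at -0.46 (-1.45 to 0.52) for Tnf and -0.12 (-1.16 to 0.92) for Il6 relative to WT, and again neither gene passed, against 0.0095% of all genes. With IL-33, both genes were lower in ST2KO cells and the groups lay apart. Tnf fell by 4.31 (SE 0.46, limma adjusted p = 4.87e-05) and Il6 fell by 2.54 (SE 0.49, limma adjusted p = 0.00338). In that comparison 5.13% of all genes were called lower and 6.43% higher, and 11.3% had groups that lay apart downward. Without background correction the Tnf difference was -2.61 and that of Il6 -2.16.

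The response itself was then compared between genotypes. The IL-33 response of ST2KO cells was below that of WT cells by 4.37 log2 units for Tnf (log2 difference -4.37, SE 0.65, limma adjusted p = 0.00473) and by less for Il6 (-2.94, SE 0.69, limma adjusted p = 0.0379), while 1.46% of all genes were called lower. The Il6 call was lost with median scaling (adjusted p = 0.0805), without the filter on detection (0.0535) and in 10 of 18 fits that left out 1 array (up to 0.108), and its adjusted p was 8.05e-06 with the array number as a block. For IgE the difference of responses was -0.52 for Tnf (95% interval -1.92 to 0.87) and -0.51 for Il6 (limma adjusted p of 1 for each), and 0% of all genes were called by limma, with 133 at an unadjusted p under 0.05 and 0 with the block. The intervals of this model are wide and leave room for an IgE response lower by 1 log2 unit in ST2KO cells (Il6 -1.98 to 0.96). With the block the SE was 0.63 for Tnf, against 0.65 without it, and 0.27 for Il6, against 0.69.

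**Figure D3:**
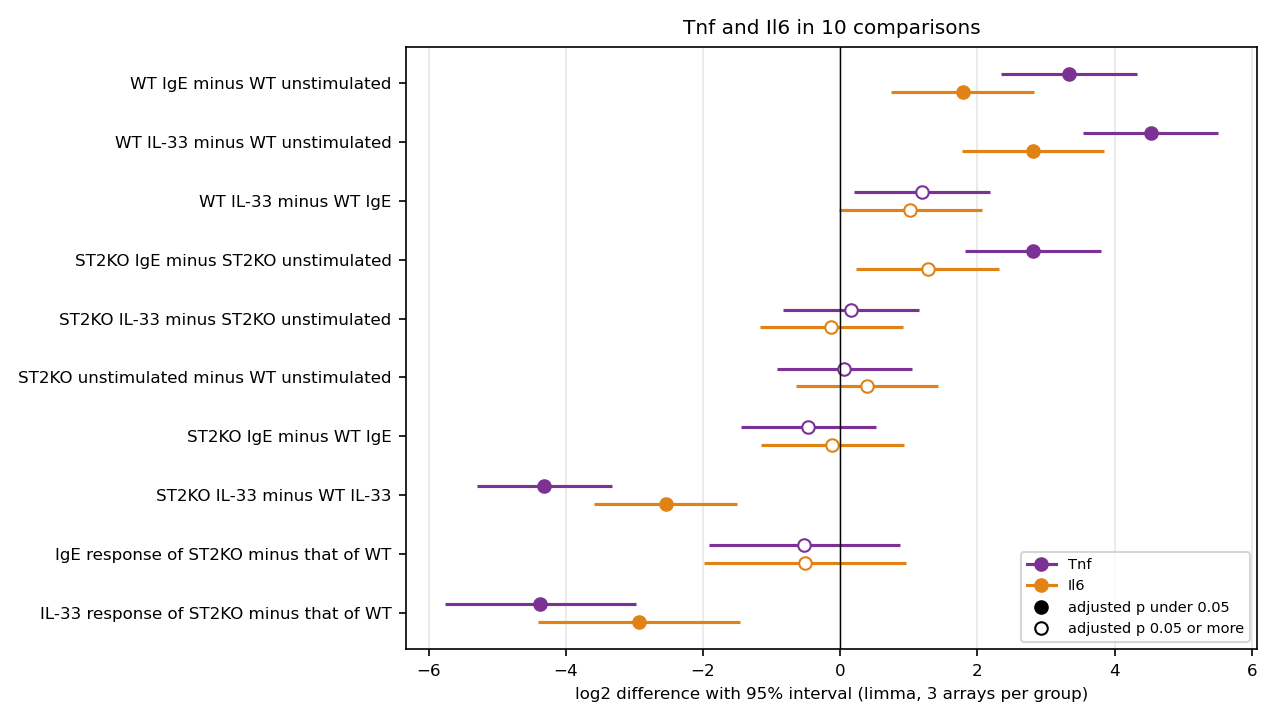
Log2 difference of Tnf and Il6 with its 95% interval (horizontal axis) in the 10 comparisons (vertical axis), from limma on 18 arrays; filled points passed an adjusted p of 0.05. The WT responses to IL-33 (4.53 and 2.81) and the difference of the IL-33 response between genotypes (-4.37 and -2.94) lie clear of 0, and the ST2KO response to IL-33 lies on it.

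Ordered by mean level, Tnf ran from WT IL-33 (9.10) over WT IgE (7.91), ST2KO IgE (7.45), ST2KO IL-33 (4.79) and ST2KO unstimulated (4.64) to WT unstimulated (4.58). The 3 lowest groups overlapped, the pair of IgE groups overlapped, and a wide gap separated the IgE groups from the low ones. Il6 ran from WT IL-33 (10.24) over WT IgE (9.22), ST2KO IgE (9.10), ST2KO unstimulated (7.83) and ST2KO IL-33 (7.70) to WT unstimulated (7.43). Its neighbours overlapped throughout, except that WT IL-33 lay apart at the top. Over the 18 arrays the levels of the pair of genes correlated at 0.878 (Pearson), and at 0.959 over the 12 arrays numbered 1 and 2. These arrays share their stimuli and their numbering, and by this measure Il6 ranked 80th among the genes most like Tnf and Tnf 72nd among those most like Il6.

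The 3rd arrays moved the members in different ways. Relative to the mean of arrays 1 and 2, Tnf on array 3 was higher by 0.68 and 0.65 in unstimulated WT and ST2KO cells and lower by 1.69 and 1.44 log2 units with IgE. With IL-33 in WT cells it differed by 0.09. Il6 was lower on array 3 in all 6 groups, from -0.35 in WT IL-33 to -2.12 in ST2KO IgE. Of the 9 mast cell markers, 8 differed on array 3 by a mean of -0.58 (Hdc) to 0.17 (Gata2), and Mcpt4, a granule protease gene, by 5.66. The basophil markers Prss34, Mcpt8 and Cd200r3 differed by -3.68, 2.58 and 0.47. The summed level of the 7 of 13 macrophage and dendritic cell markers tested was 1190 to 1705 in WT unstimulated cells, 494 to 867 with IgE and 864 to 1418 with IL-33. In ST2KO cells it was 721 to 1872, 380.1 to 553 and 787 to 1702. None of the 7 was called higher with either stimulus over unstimulated cells. With IgE 1 was called lower in each genotype, where 6.53% (WT) and 7.11% (ST2KO) of all genes were called lower. For IL-33 over IgE in WT cells 1 was called higher, where 4.43% of all genes were called in either direction. In ST2KO against WT cells with IL-33, 1 was called lower, as were 5.13% of all genes. Tnf and Il6 had the same directions in these last comparisons, but neither was called for IL-33 over IgE. Of the 7, Adgre1, Lyz2 and Cx3cr1 were detected on all 17 complete arrays, at mean levels of 7.50, 7.94 and 8.26. Csf1r, Marco, Cd14 and C1qa were detected on 12, 9, 8 and 4 of them. Itgax, Mrc1, Flt3, C1qb and Siglec1 were below the filter on detection and Cd68 had no named probe. Of the 3 basophil markers tested from 4, none was called in any of the 10 comparisons. Neutrophil (1 of 8 tested) and T and B cell (0 of 7 tested) markers were at or near the detection limit. The part of the array number or of other cells in the Tnf and Il6 levels was not tested.

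Among the genes that release or receive the cytokines, Tnfrsf1b and Adam17 rose with IL-33. Of 8 genes of receptors and shedding tested from a list of 9, 2 rose in WT cells given IL-33 and 0 in those given IgE, with medians of 0.12 and 0.30 against -0.02 and -0.03 over all genes. Over all genes 5.09% were called higher with IL-33 and 5.33% with IgE. Tnfrsf1b, the gene of TNF receptor 2, rose with IL-33 by 2.73 log2 units (SE 0.41, limma adjusted p = 0.000527). Adam17, which encodes the protease that releases TNF from the membrane, rose by 0.93 (SE 0.17, adjusted p = 0.00217) and stood at -0.14 with IgE. IL-33 exceeded IgE by 1.07 for Adam17 (adjusted p = 0.00133) and by 1.64 for Tnfrsf1b (adjusted p = 0.0315, lost in 4 of 18 fits that left out 1 array). The IL-6 receptor gene Il6ra (0.14) and the gp130 gene Il6st (-0.55) did not pass with IL-33, and both lay near background. Il6ra was detected on 0 of 3 WT unstimulated arrays and 1 of 3 WT IL-33 arrays. Il6st was detected on 3 of 3 WT unstimulated arrays (4.83 to 5.16) and 0 of 3 with IL-33 (4.40 to 4.48). The size of its difference is thus limited by the background. Timp3, another gene of the list, had a WT mean level of 6.49 unstimulated, 4.77 with IgE and 4.77 with IL-33. It did not pass with either stimulus. Tnfrsf1a, the gene of TNF receptor 1, was below the filter on detection. With the array number as a block 4 genes of this list rose with IgE and 1 fell, and 2 fell with IL-33. Of all 10529 genes the block called 3426 with IgE, 45% of them higher, and 3315 with IL-33, 42.8% of them higher.

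In the cascade below the TNF receptors, of 19 genes tested from 21, 2 rose and 1 fell with IgE in WT cells, and 6 rose and 0 fell with IL-33, with medians of 0.09 and 0.13. Over all genes 5.33% were called higher and 6.53% lower with IgE, and 5.09% and 6.74% with IL-33, so 1 of 19 lower is near the share of all genes. With median scaling the list's counts were 0 higher and 0 lower with IgE and 3 higher and 1 lower with IL-33. Of all 10529 genes that setting called 1091 with IgE, 28.8% of them higher, and 1477 with IL-33, 18.8% of them higher. Tnfaip3, the gene of the ubiquitin editor A20, which ends NF-kB signals, rose by 0.86 with IgE (limma adjusted p = 0.0299) and by 1.46 with IL-33 (adjusted p = 0.00106). Cflar, an inhibitor of caspase 8, rose by 0.94 (adjusted p = 0.00372) and 0.83 (adjusted p = 0.00716). Tnip1, a partner of A20 (1.26), and the adaptor gene Traf2 (0.94) rose with IL-33, and Birc2, a ubiquitin ligase gene, fell with IgE by 0.62. The IgE calls of Tnfaip3 and Birc2 were lost in 5 and 4 of 18 fits that left out 1 array (adjusted p up to 0.151 and 0.0991), and with median scaling, under which Cflar lost both calls and Traf2 its IL-33 call. Those of Traf2 and Tnip1 were also lost without WT unstimulated replicate 1 (adjusted p of 0.05 and 0.0505).

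Of 10 genes of IL-6 signalling tested from 11, 0 passed with IgE in WT cells (median -0.26, and 1 higher and 1 lower with the block), and 2 rose and 1 fell with IL-33 (median 0.26, and 5 and 2 with the block). With IL-33, 5.09% of all genes were called higher and 6.74% lower, and 1 of 10 lower is near that share. The block called 3426 of all 10529 genes with IgE, 45% of them higher, and 3315 with IL-33, 42.8% of them higher. Jak2, a kinase gene of the gp130 pathway, rose by 1.39 (limma adjusted p = 0.00175) and Bcl3, which encodes an atypical IkB protein and is a STAT3 target, by 2.68 (adjusted p = 0.00331), from a level detected on 1 of 3 unstimulated arrays. Stat3 itself fell by 0.90 (adjusted p = 0.0202), a call lost in 4 of 18 fits that left out 1 array (up to 0.0972) and with the groups compared only. Socs3, a feedback inhibitor of gp130, stood at 1.29 (adjusted p = 0.111).

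Of 22 transcription factor genes tested from 26, 5 rose with IgE in WT cells and 6 with IL-33, and 0 fell with either, with medians of 0.53 and 0.74. Of all genes, 5.33% were called higher with IgE and 5.09% with IL-33. With IgE the largest was Egr1, an immediate-early factor, whose levels were 8.06, 8.87 and 7.21 unstimulated and 12.69, 12.52 and 9.98 with IgE. All 3 IgE arrays lay above the unstimulated ones, with array 3 the lowest, as for Tnf. The difference was 3.68 (SE 0.65, limma adjusted p = 0.00195). Nfkb2 (1.21) and the AP-1 genes Junb (1.06) and Fosl2 (0.71) also rose. With IL-33 the rises were led by Nfkbiz, which encodes IkB zeta, a nuclear cofactor needed for Il6 transcription in mouse macrophages. Its levels were 7.55, 7.43 and 9.0 unstimulated and 12.27, 12.01 and 11.59 with IL-33, while with IgE they were 8.40, 8.45 and 8.5. The IL-33 arrays lay apart from both other groups, and the IgE arrays lay within the unstimulated range. The difference with IL-33 was 3.96 (SE 0.44, limma adjusted p = 7.63e-05), and IL-33 exceeded IgE by 3.51 (adjusted p = 0.00022).

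The NF-kB subunit genes that rose with IL-33 were Nfkb2 by 3.11 (limma adjusted p = 2.36e-05), Relb by 2.80 (adjusted p = 0.000382) and Rel by 2.08 (adjusted p = 0.000225). Rela did not pass with IL-33 (0.22) or IgE (-0.14). The subunit gene Nfkb1 had no named probe and was not tested. Set directly against IgE, IL-33 gave 4 members higher and 1 lower, where 4.43% of all genes were called in either direction, with Rel higher by 1.23 (adjusted p = 0.016) and Fosl2 lower (-0.89, adjusted p = 0.00972). In ST2KO cells IgE raised 4 members (5.48% of all genes), Egr1 by 3.19 (adjusted p = 0.00497) among them, and 0 passed with IL-33. With the block the counts of members that rose were 9 with IgE and 12 with IL-33 in WT cells, 7 for IL-33 over IgE and 10 with IgE in ST2KO cells. In these comparisons the block called 3426, 3315, 1667 and 3558 of all 10529 genes, of which 45%, 42.8%, 47.9% and 44.7% were higher. With 1 array left out, the IgE calls of Junb, Fosl2 and Nfkb2 in WT cells were lost in 4, 4 and 2 of 18 fits, and the differences of Rel and Fosl2 between IL-33 and IgE in 4 and 3. The IgE call of Fosl2 was also lost with median scaling, on the mean of a gene's probes and with the groups compared only. The difference of Rel between IL-33 and IgE was lost with median scaling and with the groups compared only, and that of Fosl2 with the groups compared only.

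**Figure D4:**
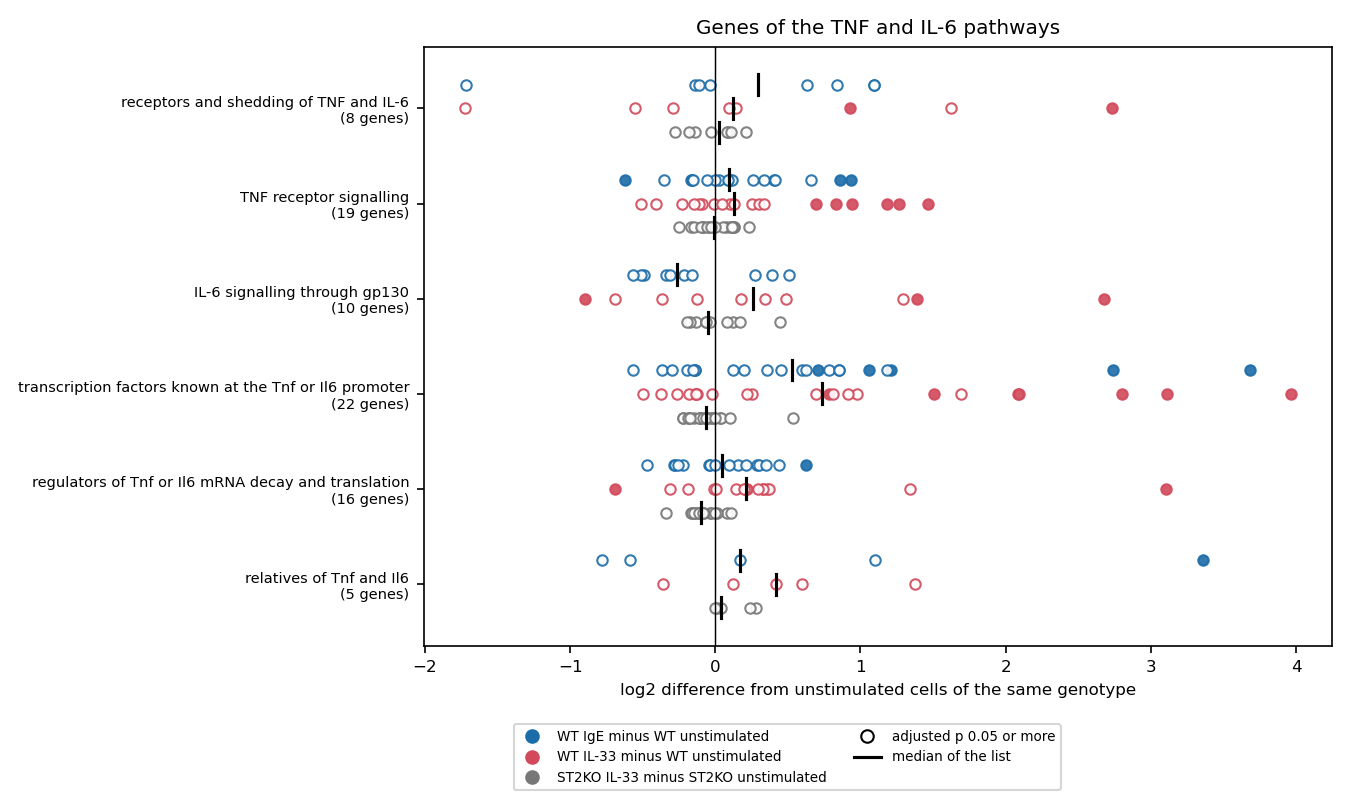
Log2 difference from unstimulated cells of the same genotype (horizontal axis) for every tested gene of the 6 lists (vertical axis), with WT IgE, WT IL-33 and ST2KO IL-33 in separate rows; filled points passed an adjusted p of 0.05 and bars are list medians. With IL-33 in WT cells a few members of the receptor, gp130, transcription factor and decay lists lie beyond 2, and in ST2KO cells 0 members passed and all lay between -0.34 and 0.54.

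Of 16 regulators of Tnf or Il6 mRNA decay and translation, 1 rose with IgE and 1 rose and 1 fell with IL-33 in WT cells, with medians of 0.04 and 0.21, and with the block 4 rose with IL-33. The counts without the block are near the shares of all genes called, 5.33% higher with IgE and 5.09% higher and 6.74% lower with IL-33. The block called 3315 of all 10529 genes with IL-33, 42.8% of them higher. With median scaling 0 rose and 1 fell with IgE, where 1091 of all genes were called, 28.8% of them higher. Zc3h12a encodes Regnase-1, an endonuclease that degrades Il6 mRNA. Its levels were 6.29, 6.02 and 8.31 unstimulated, 6.25, 6.52 and 7.75 with IgE and 10.16, 9.98 and 9.79 with IL-33. The IL-33 arrays lay above all others, and array 3 was the highest in the remaining groups. The difference with IL-33 was 3.10 (SE 0.57, limma adjusted p = 0.00235), and IL-33 exceeded IgE by 3.14 (adjusted p = 0.00416). Zfp36l1, a relative of tristetraprolin that binds AU-rich elements, fell with IL-33 by 0.69 (adjusted p = 0.0111, lost in 3 of 18 fits that left out 1 array, on the mean of a gene's probes and with the groups compared only), and Mapkapk2, a kinase that stabilises Tnf mRNA, rose with IgE by 0.62 (adjusted p = 0.0305, lost in 5 of 18, with median scaling and with no detection filter). Tristetraprolin's own gene Zfp36 stood at 0.44 with IgE and 0.19 with IL-33, with an SE of 0.94.

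Among relatives of TNF and IL-6, 5 of 10 genes were tested. Of these, 1 rose with IgE in WT cells and 0 with IL-33, where 5.33% and 5.09% of all genes were called higher. With the block 2 rose with each, where 3426 and 3315 of all 10529 genes were called, 45% and 42.8% of them higher. Tnfsf14, the gene of the TNF family ligand LIGHT, was at 8.51, 8.81 and 7.29 unstimulated and at 12.10, 11.91 and 10.68 with IgE. The groups lay apart, with array 3 the lowest in each. It rose by 3.36 (SE 0.84, limma adjusted p = 0.0174) with IgE in WT cells and by 3.51 (adjusted p = 0.0139) in ST2KO cells, each call lost in 3 of 18 fits that left out 1 array. Lta, the gene of lymphotoxin alpha, was below the filter on detection. Ltb, the lymphotoxin beta gene, which neighbours Tnf on the chromosome, was detected on 2 of 3 WT unstimulated arrays, with levels of 5.13, 4.60 and 7.75, and its IL-33 levels of 5.04, 4.84 and 7.96 overlapped them.

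In the genotype comparison under IL-33, the same lists held 2 of 8 receptor and shedding genes lower in ST2KO cells, 3 of 19 TNF signalling genes, 3 of 10 IL-6 signalling genes, 7 of 22 transcription factor genes, 3 of 16 decay regulators and 0 of 5 relatives. Of all genes 5.13% were called lower. With the block these counts were 3, 6, 4, 9, 5 and 2, and with median scaling that of the decay regulators was 1. Of all 10529 genes, 2920 were called with the block, 55.7% of them higher, and 1061 with median scaling, 71.3% of them higher. The share of 5.13% thus does not apply to the block counts. Higher in ST2KO cells were 1 IL-6 signalling gene, a call lost with median scaling, and 1 decay regulator, where 6.43% of all genes were called higher. Nfkbiz was lower in ST2KO cells by the largest amount among those named (-4.30, limma adjusted p = 3.22e-05). Also lower were Zc3h12a (-3.55, adjusted p = 0.000938), Relb (-2.83, adjusted p = 0.000417) and Tnfrsf1b (-2.70, adjusted p = 0.000654). This comparison shares the WT IL-33 arrays with the WT response, so the values are not a second observation of it.

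The genes whose levels over the 18 arrays were most like those of Tnf were Ccl3, a chemokine gene (Pearson r = 0.961), the chemokine gene Ccl1 (0.949), Etv6, an ETS family factor gene (0.941), Tnfaip3 (0.941) and the BCL2 family gene Bcl2a1d (0.941). In WT cells Ccl3 differed from unstimulated by 3.18 with IgE and 4.25 with IL-33, and in ST2KO cells by 3.39 and -0.12. Those most like Il6 were Mtf1, a metal-responsive transcription factor gene (0.963), the deubiquitinase gene Usp16 (0.957), the mitochondrial carrier gene Slc25a33 (0.957), Ube2f (0.955) and Tmem248 (0.935). Mtf1 differed by 1.02 with IgE and 1.43 with IL-33 in WT cells and by 0.79 and -0.05 in ST2KO cells. With Tnf, 48 genes correlated above 0.9, and with Il6, 32. All arrays are shared by these correlations, which describe likeness over 6 groups.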

How the data were processed

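Total RNA of 18 mast cell samples was extracted with RNeasy kits and biotin-labelled for Illumina arrays, per the labels' protocols. The deposited intensity and detection p-value columns are not normalized, per the file headers, and the lowest intensities of 71.2 to 79.5 show that background was still in them. The authors also deposited a log2 table, whose columns shared the same sorted values to within 0.00077 (median 4.24). Its background step is not given in the sources used here. Intensities were corrected, quantile normalized and logged with neqc of limma 3.58.1 (R 4.3.3, offset 16). For the incomplete array, whose intensities were missing for 35269 probes, values were placed by rank in the authors' table.

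A probe was kept where 3 or more complete arrays had its detection p below 0.05 (19514 probes, of which 16637 had 1 gene symbol), and the probe with the highest mean level stood for a gene. Symbols came from the platform annotation given and RefSeq names: 34885 probes had 1 symbol, 18 several and 10378 none listed. The main limma model had a mean per group, no block for the array number, and eBayes with trend (12 residual degrees of freedom). With Benjamini-Hochberg adjustment over 10529 genes at 0.05 it gave each adjusted p, except where an alternative or all probes are named. Only the limma fit was tried on simulated data, for WT IL-33 against WT unstimulated cells. The simulated noise was independent between arrays, without the array number effect of the real ones. In the alternative with a block, array numbers were taken as pairing samples. Residuals of same-numbered arrays correlated over genes at 0.511 to 0.918 within and 0.397 to 0.727 between genotypes. The block was the number within genotype, or the shared number for the 3 comparisons of genotypes within a state.

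The members, lists and tests were chosen with earlier results of these data known. Named genes were drawn from the members, the 5 genes most like each, and per list up to 4 with the smallest adjusted p and up to 2 of the highest level that did not pass. Not every gene that this rule gives is named. Between genotypes under IL-33, Nfkb2, Rel and Jak2 had a smaller adjusted p than Relb and were left out. Il6ra, Il6st, Timp3, Socs3, Zfp36, Ltb, Adam17 with IgE and Ccl3 and Mtf1 among the likest were singled out after their values were seen. Results were recomputed with median scaling, without background correction, on the authors' log2 values, with the detection filter dropped or made stricter, on the mean of a gene's probes, over every probe, on the groups compared only, with a replicate block, with other eBayes settings and with each array left out in turn. Figures were drawn with matplotlib.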

Additional observations from a re-analysis of the deposited data

Results flagged for a closer look

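The IL-33 response differed between the genotypes by a test of the difference itself. For Tnf, the response of ST2KO cells minus that of WT cells was -4.3697 log2 units (SE 0.65, limma adjusted p = 0.00473), with WT responses of 4.66, 4.79 and 4.13 and ST2KO responses of 0.11, 0.07 and 0.29 on array numbers 1, 2 and 3. For Il6 it was -2.9353 (SE 0.69, limma adjusted p = 0.0379), with WT responses of 2.69, 2.82 and 2.92 and ST2KO responses of 0.10, -0.18 and -0.30. All 3 array numbers showed the direction for both genes.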

How the results depend on the processing

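Over the 20 results for Tnf and Il6, 572 of 610 alternative values kept their direction and their side of the threshold. Exceptions were 18 that lost a call, 7 that gained one and 13 that changed sign, the last all in comparisons that had not passed the test. Median scaling took the calls of the Il6 response to IgE in WT cells (1.704) and of the Il6 difference in IL-33 response between genotypes (-2.6845), and without a detection filter the latter was lost as well (-2.9353, more genes tested). With the replicate block, the array number pairing the samples, Il6 gained calls for IL-33 over IgE in WT cells (1.0228) and for IgE in ST2KO cells (1.2764), and no other Tnf or Il6 call changed. Without the arrays numbered 3, chosen after seeing the data, calls were gained for IL-33 over IgE (Tnf 0.5968, Il6 0.9268), Il6 with IgE in ST2KO cells (1.6676) and Il6 in unstimulated ST2KO against WT cells (0.5395), while Il6 in ST2KO against WT cells with IgE turned to 0.3796. The second Tnf probe gave -0.1444 for IL-33 in ST2KO cells. The cause of these changes was not tested.

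With 1 array left out, values ran from 1.6158 to 1.9969 for the Il6 response to IgE in WT cells, 0.909 to 1.9832 for that in ST2KO cells and -3.251 to -2.5336 for the Il6 difference in IL-33 response. Ranges that crossed 0 were -0.1271 to 0.3717 (Tnf) and -0.4429 to 0.2746 (Il6) for IL-33 in ST2KO cells, -0.1563 to 0.2853 (Tnf) for unstimulated ST2KO against WT cells, -1.0288 to 0.0155 (Tnf) and -0.483 to 0.5912 (Il6) for ST2KO against WT cells with IgE, and -0.8764 to 0.1979 (Il6) for the difference in IgE response.

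Counts of all genes called rose with the block from 1249 to 3426 (IgE, WT), 1246 to 3315 (IL-33, WT), 466 to 1667 (IL-33 over IgE), 1326 to 3558 (IgE, ST2KO), 1217 to 2920 (genotype, IL-33) and 286 to 1639 (difference in IL-33 response), and without the arrays numbered 3 to 3912, 4069, 2199, 3880, 3888 and 2563. With 1 array left out these counts ran from 594 to 1460, 624 to 1727, 224 to 553, 658 to 1600, 573 to 1720 and 99 to 577. Genotype calls rose from 1 to 21 (unstimulated) and 14 (IgE) with the block and to 533 and 423 without the arrays numbered 3, which also gave 15 for the difference in IgE response. With the groups compared only, counts were 755 (IL-33, WT), 294 (IL-33 over IgE), 483 (IgE, ST2KO), 329 (genotype, IL-33), 141 (difference in IL-33 response) and 0 for both other genotype comparisons. The fit over every probe counted probes out of 19514 and not genes out of 10529, so its counts are not on the same scale. Its counts were 1942, 1937, 744 and 2082 probes for the stimuli in the order above. For the genotypes unstimulated, with IgE and with IL-33 they were 3, 2 and 1877 probes. Over genes, median scaling gave 868 for IgE in ST2KO cells, and no detection filter 145 for the difference in IL-33 response. Of the genes called with IL-33 in WT cells 43% were higher, against 18.8% with median scaling, which moved the median of all genes there from -0.02 to -0.16, that of unstimulated ST2KO against WT cells from 0.0094 to -0.12 and that of the difference in IL-33 response from 0.02 to 0.20. For IgE in WT cells the share went from 44.9% to 28.8%, for IL-33 over IgE from 48.7% to 37.9%, for the genotypes under IL-33 from 55.6% to 71.3% and for the difference in IL-33 response from 46.2% to 78%. Tnf lay near background in 3 groups, so its folds depend on the background correction, and 3 arrays a group limit the precision of all values.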
